A study of Xenopus laevis with 4 samples.

Results

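The ETS2 regions described here are those on chromosomes 3L and 3S of the frog Xenopus laevis. They were taken from the authors' list of regions common to both libraries of chromatin immunoprecipitation followed by sequencing (ChIP-seq), by chromosome name alone. There were 6220 such regions of 61137 in all (10.2%), 3644 on 3L and 2576 on 3S. The whole list included 5696 regions on sequences not placed on any of the 18 chromosomes. Shares over all chromosomes below leave these out, and 3L and 3S held 11.2% of the placed regions. Whether any unplaced region belongs to 3L or 3S was not tested. Per the labels, mRNA for triple-FLAG ETS2 had been injected at 750 pg, and whole embryos were taken at mid-gastrulation (stage 11.5). FLAG is a short peptide tag for which antibodies exist. Of the 4 libraries, 2 are FLAG ChIPs and 2 are inputs without antibody, and all came from injected embryos, so that each sample contained the added protein. ChIP library 1 (letter A in the labels) and ChIP library 2 (letter C) each gave 1 peak list. Whether these libraries came from separate batches of embryos is not given in the labels. A ChIP from embryos without the tagged protein was not analysed here. Binding was thus of an added, tagged protein, in chromatin pooled from whole embryos. Which cell types held the protein cannot be told from these data.

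ETS2 belongs to the ETS transcription factors, which bind DNA through a conserved ETS domain, mostly at sites with a GGAA core. ETS factors are known as nuclear targets of FGF and MAP kinase signalling, which takes part in mesoderm formation in the frog gastrula. Xenopus laevis is an allotetraploid: each chromosome has an L and an S form, inherited from different ancestral species. The S chromosomes are known to be shorter and to have lost more genes, and rearrangements between L and S partners are known in this species. An inversion is a rearrangement in which a stretch of a chromosome is turned end to end, so that its contents run in the opposite order.

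Read depth is unknown, since the files are peak lists. Library 1 held 69083 peaks and library 2 held 157105. Their values, of the scale of −log10 p or q, are comparable only by rank within each list. Every common region held at least 1 peak of each library. Coordinates are those of the files, with starts counted from 1, in a genome build that the labels and file headers do not name. Without a genome of that build, no gene or sequence was assigned to a region. Intervals below are exact 95% intervals that cover counting error only, and they are too narrow where neighbouring regions are not independent.

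Chromosome 3L carried more regions per Mb than 3S. There were 25.3 common regions per Mb on 3L (95% interval 24.5 to 26.1) and 21.4 per Mb on 3S (20.6 to 22.2), a ratio of 1.18 (1.12 to 1.24). Chromosome 3S reached 83.5% of the length of 3L but held 70.7% as many regions. Among all 18 chromosomes, 3L was the fifth in density and 3S the tenth. Peaks of library 1 numbered 28.4 per Mb on 3L and 24.1 on 3S, and peaks of library 2 numbered 62.2 and 57.2 per Mb. Both libraries were thus denser on 3L, with ratios of 1.18 and 1.088. The peaks of library 2 that overlapped no common region were nearly as dense on both chromosomes, with a ratio of 1.03 (0.992 to 1.07).

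The ratio of the common regions was the highest of the 9 chromosome pairs, where the other 8 had a mean log2 ratio of 0.09 ± 0.070 (SD) against 0.24 for pair 3. The design cannot show whether pair 3 stands apart, since 0.111 is the smallest p that 9 pairs allow. At least as large a distance from the mean of the other pairs was found for 2 of the 9 pairs, pair 3 among them (exact permutation p = 0.222, two-sided). In the list of library 2, pair 1 had the higher ratio (1.103). Among common regions above the median strength, as defined below, the ratio of pair 3 was 1.13. Pair 3 was then less set apart from the others (exact permutation p = 0.667, two-sided).

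**Figure D1:**
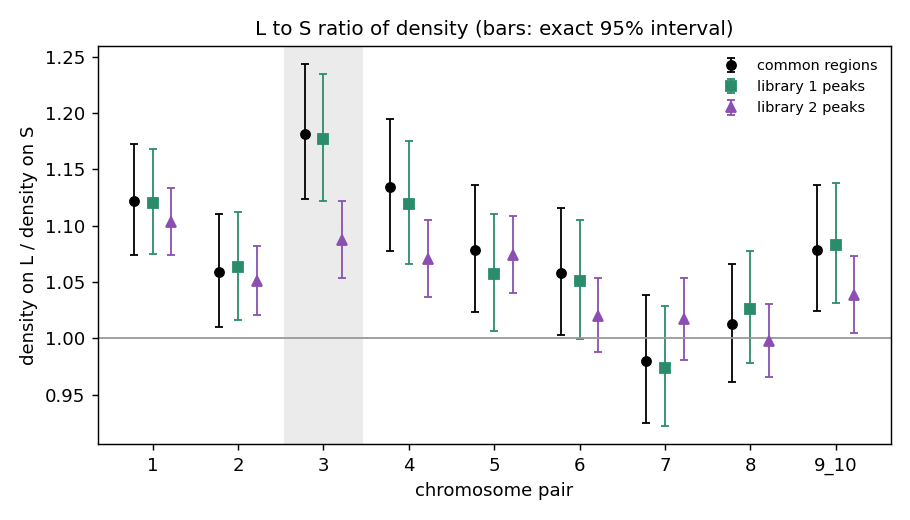
Density on the L chromosome divided by density on its S partner (vertical axis, ratio of regions or peaks per Mb) for the 9 chromosome pairs, with common regions as circles, library 1 peaks as squares and library 2 peaks as triangles; bars are exact 95% intervals for counting error. Pair 3 (shaded) was the highest for common regions at 1.18, and at 1.088 the second highest for library 2.

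The difference in density lay mainly towards the far end of the chromosomes. This division was chosen after the profile was seen. Parts were paired by relative position, which need not pair the same genes. The gene order on 3S was reversed from 14.1 to 87.9% of gene pairs, as described below. In the last 20% of its length, 3L held 867 common regions, or 30.1 per Mb (28.1 to 32.1), and 3S held 410, or 17.0 per Mb (15.4 to 18.7), a ratio of 1.77. In the other 8 pairs the ratio for the last 20% ran from 0.836 in pair 7 to 1.22 in pair 1. In the first 80%, the densities were 24.1 per Mb on 3L (23.2 to 24.98) and 22.5 per Mb on 3S (21.5 to 23.4), a ratio of 1.07, and pair 3 was then the fourth of the 9 pairs. Both libraries had the difference in the last 20%. Library 1 had 34.7 peaks per Mb there on 3L and 19.01 on 3S, and library 2 had 73.4 and 52.3. The peaks of library 2 that overlapped no common region were at 43.2 and 35.2 per Mb in the same stretch.

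The starts of both chromosomes were dense and similar. The first 5% held 41.5 common regions per Mb on 3L (36.9 to 46.4) and 40.0 per Mb on 3S (35.1 to 45.4), the highest of the 20 equal parts in both. On 3L the next densest part was the one from 90 to 95% of its length, with 39.4 per Mb. On 3S that part was the sparsest of the 20, with 12.8 per Mb, followed by the last 5% with 13.3. The sparsest part of 3L ran from 15 to 20% of its length and held 14.1 per Mb. Library 1 alone had 45.3 peaks per Mb at 90 to 95% of 3L and 13.8 at the same place of 3S, and library 2 had 90.4 and 40.7. In 13 of the 20 parts, paired by relative position, 3L was the denser chromosome. A dense start was not particular to this pair. The first 5% held 46.3 common regions per Mb on 9_10L, 49.7 on 9_10S and 49.9 on 8L, the highest, and 15.6 on 2S, the lowest.

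**Figure D2:**
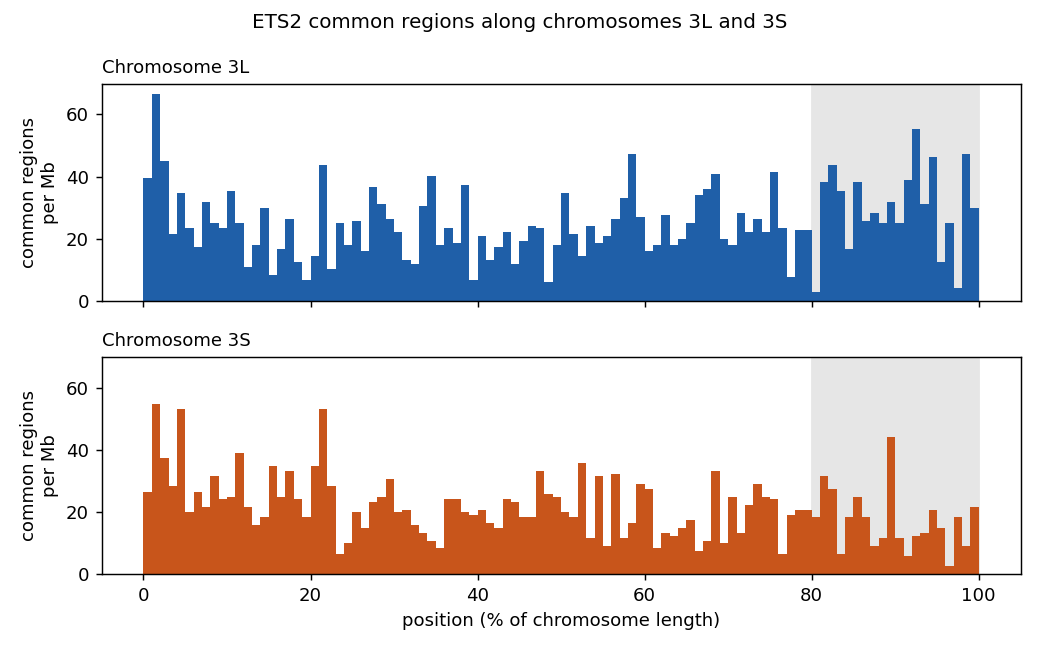
Common ETS2 regions per Mb (vertical axis) in 100 equal bins along 3L (upper) and 3S (lower), with position as a percentage of chromosome length; the last 20% is shaded. Both chromosomes were dense at the start, at 41.5 and 40.0 regions per Mb in the first 5%, and in the shaded part 3L held 30.1 and 3S 17.0 per Mb.

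Neighbouring regions lay closer together on 3L than on 3S. The gap from the end of a region to the start of the next had a median of 16.1 kb on 3L (quartiles 4.14 and 43.7 kb) and 19.9 kb on 3S (6.01 and 54.2 kb). Gaps under 5 kb made up 27.7% of 3643 gaps on 3L (26.2 to 29.2%) and 22.6% of 2575 gaps on 3S (21.0 to 24.3%), beside 25.6% over all chromosomes. Of the 18 chromosomes, 3L had the fourth highest share of such close neighbours, and 3S had the second lowest, above 5S (21.9%). The chromosomes next to 3L in density were 9_10S, with 25.6 regions per Mb and 28.9% close neighbours, and 4L, with 23.8 and 25.7%. The share of 3L thus lay between those of chromosomes of like density. The density of 3S was near the middle of the order. Of the chromosomes nearest to it in density, 1L had 21.5 regions per Mb and 24.2% close neighbours, 2L had 21.03 per Mb and 24.4%, 4S had 21.0 per Mb and 24.7%, and 7L had 22.04 per Mb and 26.5%. The difference of 3S from these was not tested, and the share of 1L lies within the interval of 3S. The first quartile of the gap was 6.01 kb on 3S, the second largest of the 18 chromosomes.

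**Figure D3:**
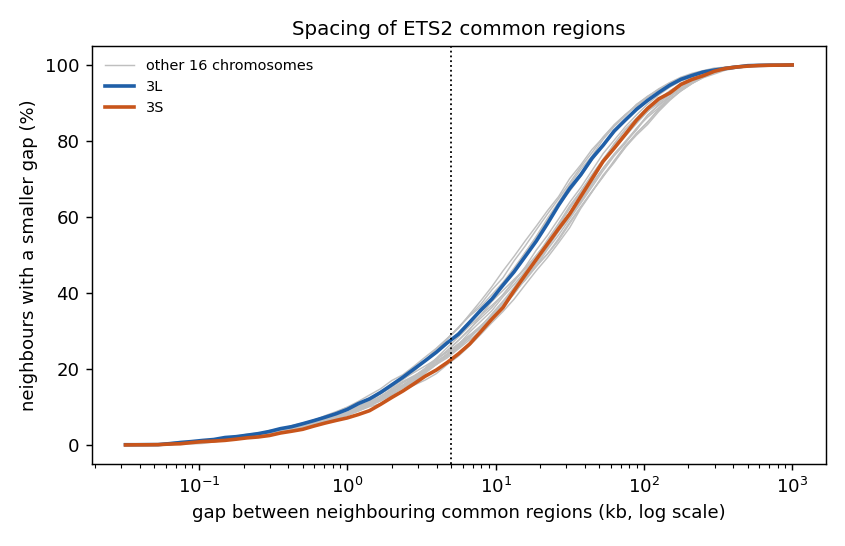
Share of neighbouring common regions (vertical axis, %) whose gap is smaller than the value on the horizontal axis (kb, log scale), for 3L, 3S and, in grey, each of the other 16 chromosomes; the dotted line marks 5 kb. At 5 kb the curve of 3L stood at 27.7% and that of 3S at 22.6%, near the top and the bottom of the grey curves.

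Isolated regions, at least 100 kb from their neighbours on both sides, numbered 95 on 3L (2.61%) and 82 on 3S (3.18%). On the other chromosomes the share ran from 1.76% on 8S to 4.70% on 1S, so both values were within that range. Of windows of 100 kb, 356 of 1443 on 3L held no common region (24.7%, 22.5 to 27.0%) and 310 of 1205 on 3S (25.7%, 23.3 to 28.3%), beside 26.4% over all chromosomes. The share of empty windows thus differed by less than the counting error.

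Crowded windows made up a larger share of 3L. Windows of 100 kb with 10 or more common regions numbered 38 of 1443 on 3L (2.63%, 1.87 to 3.60%) and 18 of 1205 on 3S (1.49%, 0.888 to 2.35%), beside 1.83% over all chromosomes. The ratio of these shares was 1.76 and was not tested, and the intervals overlap. On 9_10S and 4L, the chromosomes next to 3L in density, the shares were 3.06% and 2.08%. The most crowded window of 3L, at 136400001 to 136500000, held 27 common regions, with 37 peaks of library 1 and 42 of library 2. It was followed by 30500001 to 30600000 with 19 regions (23 and 30 peaks) and 1800001 to 1900000 with 18 (21 and 27 peaks). On 3S the most crowded window, at 107900001 to 108000000, held 18 regions, with 19 peaks of library 1 and 37 of library 2. Next were 1200001 to 1300000 with 16 regions (23 and 27 peaks) and 5700001 to 5800000, also with 16 (19 and 25 peaks).

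Regions were further joined into stretches wherever the gap was at most 10 kb. Stretches of 5 or more regions held 552 regions on 3L (15.1%) and 299 on 3S (11.6%), beside 14.2% over all chromosomes. On 9_10S and 4L, next to 3L in density, they held 18.6% and 14.7%. Regions with no neighbour within 10 kb made up 40.4% on 3L and 47.2% on 3S, beside 43.7% on the other chromosomes. There were 83 stretches of 5 or more on 3L and 44 on 3S, and 8 and 4 stretches of 10 or more.

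The longest stretch of 3L ran from 136433057 to 136498759, over 65.7 kb, and held 26 regions, or 1 every 2.53 kb. It lay at 94.6% of the chromosome, within the dense part near its end. The regions in it were of mixed strength, with mean percentiles from 25.3 to 99.5 and a median of 68.7, and 9 were in the top 10% of all common regions by mean percentile, a class that held 9.92% of regions on the other 16 chromosomes. The second held 15 regions over 43.9 kb, at 30538871 to 30582798, with a median percentile of 82.6. The third held 14 regions over 36.5 kb, at 33740625 to 33777155, where the percentiles ran from 5.46 to 99.7. The lowest percentile was 49.5 in the second stretch and 5.46 in the third, so only the third reached the weak end of the list.

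On 3S the longest stretch ran from 1190119 to 1249793, over 59.7 kb, with 18 regions and a median percentile of 59.6. The second, at 107899521 to 107969161, held 17 regions over 69.6 kb with a median percentile of 81.8. It lay at 89.6% of the chromosome, in a stretch of 3S that was otherwise sparse. The third, at 5736278 to 5779843, held 14 regions over 43.6 kb and was made up mostly of strong regions. Its median percentile was 96.9 (95.3 in library 1 and 98.1 in library 2), and 9 of its 14 regions were in the top 10%. It contained the fifth strongest region of 3S, at 5763992 to 5765024.

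Long stretches without a common region were found on both chromosomes. The longest of 3L spanned 910.5 kb (37360392 to 38270924), the next 866.0 kb (69607543 to 70473551) and the third 678.2 kb (140342073 to 141020241). On 3S they spanned 896.0 kb (105360167 to 106256208), 808.2 kb (116264274 to 117072499) and 677.2 kb (51188063 to 51865289). None of the 6 was free of peaks. Library 2 had from 6 to 17 peaks in each, with values of at most 47.2, and library 1 had 1 peak in the second of 3L and 0 in the other 5. These stretches were thus without a peak found by both libraries, though some sequence in each was mapped. How much of each stretch could be mapped was not tested.

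Width was similar on both chromosomes. Common regions had a median width of 463 bp on 3L (quartiles 356 and 636) and 464.5 bp on 3S (364 and 632), and the medians of the other chromosomes ran from 442 bp on 6L to 475 bp on 8L. The narrowest region was 139 bp on both, which is the width limit of library 2. Regions over 1 kb wide made up 5.98% on 3L and 6.48% on 3S. Common regions covered 1.34% of 3L and 1.15% of 3S. The widest region of 3L, at 96427932 to 96430665 (2734 bp), overlapped 6 peaks of library 1 and 1 peak of library 2, with highest values of 70.1 and 188. The widest of 3S, at 46972250 to 46974733 (2484 bp), overlapped 4 peaks of library 1 and 1 of library 2, with highest values of 49.8 and 120. Regions with 2 or more peaks of library 1 made up 8.45% on 3L and 8.11% on 3S, beside 7.68% over all chromosomes.

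Strength was given as the percentile of the highest overlapping peak within its own list. The median percentile was 54.3 in library 1 and 80.8 in library 2 on 3L, and 55.4 and 81.0 on 3S. The mean of both libraries had a median of 65.8 on 3L (quartiles 47.4 and 83.7) and 67.6 on 3S (48.0 and 82.9). The difference (3L minus 3S) was −1.84 percentile points and was not tested. Medians of the other chromosomes ran from 63.9 on 6L to 67.6 on 8L. Over common regions the difference was −1.19 points in library 1 alone and −0.222 in library 2 alone. Over all peaks of library 2, in place of common regions, it was 2.21 points, with 3L the higher, and over all peaks of library 1 it was −0.560. The direction thus depended on the set of peaks. Regions in the top 10% numbered 411 on 3L (11.3%, 10.3 to 12.4%) and 269 on 3S (10.4%, 9.29 to 11.7%), beside 9.92% on the other 16 chromosomes. In the dense part of 3L from 90 to 95%, 43 of 284 regions (15.1%) were in the top 10%, and the median percentile was 61.2, the lowest of the 20 parts of 3L. At the same place of 3S, 3 of 77 regions (3.90%) were in the top 10%.

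The strongest region of 3L lay at 117680951 to 117682072, was 1122 bp wide and had a value of 129 in library 1 and one of 254 in library 2. The second, at 23196140 to 23196849, had values of 112 and 262 and stood in a stretch of 11 regions, with neighbours 0.175 and 1.31 kb away. The third, at 78076380 to 78078202, was 1823 bp wide, held 2 peaks of library 1 and had values of 109 and 224. The other two were at 21531300 to 21531875 (103 and 236) and at 43302909 to 43303503 (95.1 and 247). All 5 were at or above the 99.8th percentile of both lists, and each had a neighbour within 5 kb on at least 1 side. The share of all regions with such a neighbour was not computed, so whether strong regions differ in this was not tested. Among the 5 strongest of 3S, the region at 4968185 to 4969023 (gaps of 5.042 and 8.945 kb) had no such neighbour. Nor had the region at 68470558 to 68471295 (31.1 and 11.8 kb), while each of the others of 3S had at least 1.

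The strongest region of 3S lay at 26145799 to 26146782, with values of 118 and 271. The second, at 4968185 to 4969023, had the value 144 in library 1, the highest of that library on either chromosome, and 238 in library 2. The third was at 68470558 to 68471295 (117 and 214), with gaps of 31.1 and 11.8 kb to its neighbours. The fourth was at 90837064 to 90838152 (99.9 and 221), and the fifth was the region of the strong stretch described above (91.3 and 255), with neighbours 0.627 and 0.174 kb away. The second and the fifth both lay in the first 5% of 3S.

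Regions in crowded stretches ranked somewhat higher. On 3L the median percentile was 64.5 for regions with no neighbour within 10 kb, 65.9 in stretches of 2 to 4 and 69.9 in stretches of 5 or more. On 3S the medians were 66.9, 66.7 and 73.6, and on the other chromosomes 64.8, 66.3 and 69.7. Regions in the top 10% made up 8.63% of lone regions and 17.9% of those in stretches of 5 or more on 3L, and 7.41% and 20.4% on 3S. The order was the same on the other chromosomes (7.06% and 15.97%), so it was not particular to this pair. The quartiles of the classes overlapped widely. In library 1, lone regions and those in stretches of 5 or more had median percentiles of 51.6 and 60.8 on 3L and 54.3 and 65.0 on 3S. In library 2 these were 80.7 and 81.2 on 3L and 80.8 and 84.4 on 3S. The sizes of these steps are not comparable between libraries, because common regions make up nearly all of the list of library 1 but only the stronger part of that of library 2. Direct neighbours resembled each other little in strength. Spearman's rank correlation of neighbours less than 5 kb apart was 0.05 on 3L (1009 neighbours) and 0.07 on 3S (582 neighbours), given without a p because neighbours share their surroundings.

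**Figure D4:**
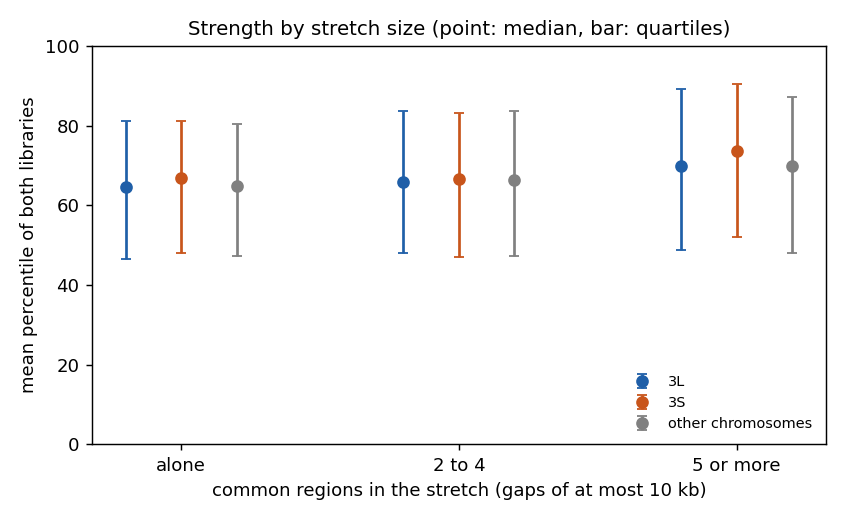
Mean percentile of both libraries (vertical axis) of common regions by the number of regions in their stretch (horizontal axis), for 3L, 3S and the other 16 chromosomes together; points are medians and bars the quartiles. Medians in stretches of 5 or more were 69.9 on 3L and 73.6 on 3S, above those of lone regions at 64.5 and 66.9, with quartiles that overlap widely.

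The libraries ranked the regions alike. The rank correlation of their percentiles was 0.77 across the 3644 regions of 3L and 0.78 across the 2576 of 3S, within the 0.747 to 0.796 of the other chromosomes. Ranked among common regions, 398 regions of 3L were in the top 10% by library 1. Of these, 284 (71.4%) were also in the top 10% by library 2, a class of 424 (67.0% shared). On 3S, 193 regions were in both, or 73.1% of the 264 of library 1 and 69.2% of the 279 of library 2. These shares were not computed for the other chromosomes. Of library 2 peaks, 40.7% overlapped a common region on 3L and 37.5% on 3S, beside 38.8% over all chromosomes. The library 2 peaks left out were weak, with median values of 6.43 on 3L and 6.41 on 3S, against 36.6 and 36.9 for those in common regions.

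The profiles of 3L and 3S were then compared bin by bin, in 100 equal bins per chromosome. In the same direction they hardly corresponded. Spearman's rho of the bin counts was 0.0276 for common regions, 0.0314 for library 1 and 0.0583 for library 2. Other pairs reached up to 0.445 (pair 6), and only pair 8 was lower, at −0.00626. Reversal of the whole of 3S gave −0.0312. These correlations are descriptions over 100 bins of the same chromosomes, without a p.

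Reversal of part of 3S raised the correlation, to a level that the same search also reached in pairings of chromosomes that are not partners. All parts of at least 10 bins were tried, and the reversal of 3 to 100% of 3S gave the highest rho, 0.348. A search of this kind can only raise rho. The same search on the other 8 pairs gave 0.330 to 0.705. The rise from the same direction was 0.321 in pair 3, second to the 0.337 of pair 8, and 0.0895 to 0.260 in the other 7 pairs. Pairs 3 and 8 also started from the lowest values. Run on 16 pairings of 3L or 3S with chromosomes that are not their partners, it gave 0.193 to 0.366, and 5 of the 16 were at or above the 0.348 of 3L and 3S. The rise of 0.321 was matched or exceeded in 2 of these 16, where rises ran from 0.178 to 0.407. Applied to the library 2 peaks that overlap no common region, which had not chosen it, the same part moved rho from 0.0853 to 0.173. In each of the other 8 pairs, the part chosen there also raised rho of these peaks, as from 0.247 to 0.349 in pair 1. In pair 9_10 it rose from 0.418 to 0.528. A rise was thus not particular to pair 3. These peaks also come from 1 of the libraries that chose the part, and from the same bins.

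The part chosen was not stable. Reversal of 40 to 100% was best with 50 bins (rho 0.416) and of 5 to 99.5% with 200 bins (0.292). It was 3 to 100% with library 1 alone and 13 to 94% with library 2 alone. The library 2 peaks outside common regions chose 14 to 93% (rho 0.376), and that part gave 0.298 for the common regions, which it had not been chosen on. The same exchange raised rho of common regions in most other pairs, such as pair 1 (0.223 to 0.324) and pair 9_10 (0.334 to 0.451). It lowered rho in pairs 5 (0.203 to 0.161) and 7 (0.348 to 0.340). The profiles alone therefore did not fix the ends of a reversed part.

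The order of genes, a source independent of the peaks, did show a large reversed part between 3L and 3S. It was read from the RefSeq gene table of the assembly Xenopus_laevis_v10.1, in which the L and S copies of a gene share a symbol, and used for the order of genes only, since its build is not known to be that of the files. Of 976 genes with a copy on both 3L and 3S, the order on 3S was reversed in a block of 720, from zmat2 to tecr on 3L. Inside it 717 of 719 steps from gene to gene ran backwards on 3S. The block began after the 14.1% of gene pairs nearest the start of 3L and ended at 87.9%. Outside it 201 of 254 steps ran in the same direction on both. Direct neighbours were kept in reversed order in 77.8% of cases in pair 3, against 2.13% in pair 1, 2.62% in pair 9_10 and 36.4% in pair 8, the next highest.

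The gene block and the region profile were compared in a simple way, added after both had been seen. When the bins from 14 to 88% of 3S were reversed, on the assumption that shares of genes stand for shares of length, rho was −0.00529 for common regions, 0.0216 for library 1 and 0.0883 for library 2. With the ends moved by up to 5 bins, rho for common regions ran from −0.157 to 0.298 over 121 choices, with a median of 0.0462. The highest was that of 14 to 93%, at the edge of the ends tried, the part that the library 2 peaks outside common regions had chosen. Without the reversal rho was 0.0276, 0.0314 and 0.0583, so it fell for common regions and library 1 and rose for library 2. Over the bins of the block alone, rho for common regions was −0.0396 in the same direction and −0.0724 reversed. It was −0.0556 and −0.0707 for library 1, and −0.0422 and 0.0129 for library 2. Reversal of the block given by gene order thus did not improve the match of common regions bin by bin. Values with other ends varied widely.

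A comparison that tolerates local shifts was also made. Windows of 15 bins of the L chromosome were matched to the best of the windows within 6 bins of the same place on the S chromosome, and to the best reversed window within 6 bins of the mirrored place. For common regions of pair 3 the mean best rho of 86 windows was 0.458 in the same direction and 0.513 mirrored, and the mirrored match was the better in 50 of 86 windows. Pair 8 also had the higher mean for the mirrored match (0.448 and 0.484). In the other 7 pairs the match in the same direction was the higher, narrowly in pair 7 (0.450 and 0.443) and most clearly in pairs 4 (0.609 and 0.415) and 9_10 (0.653 and 0.487). Pairs 3 and 8 were also those with the lowest rank correlation of gene order, 0.197 and 0.266. The other 7 pairs had 0.969 or more. The order of the means in pair 3 was the same in library 1 (0.473 and 0.511), in library 2, where they were nearly equal (0.495 and 0.501), and in library 2 peaks outside common regions (0.454 and 0.482). The mirrored mean of pair 3 was the highest of the 9 pairs, but close to those of the others (0.399 to 0.487). Its mean in the same direction was like those of pairs 5 (0.465) and 7 (0.450). Overlapping windows share bins, and the difference was not tested.

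**Figure D5:**
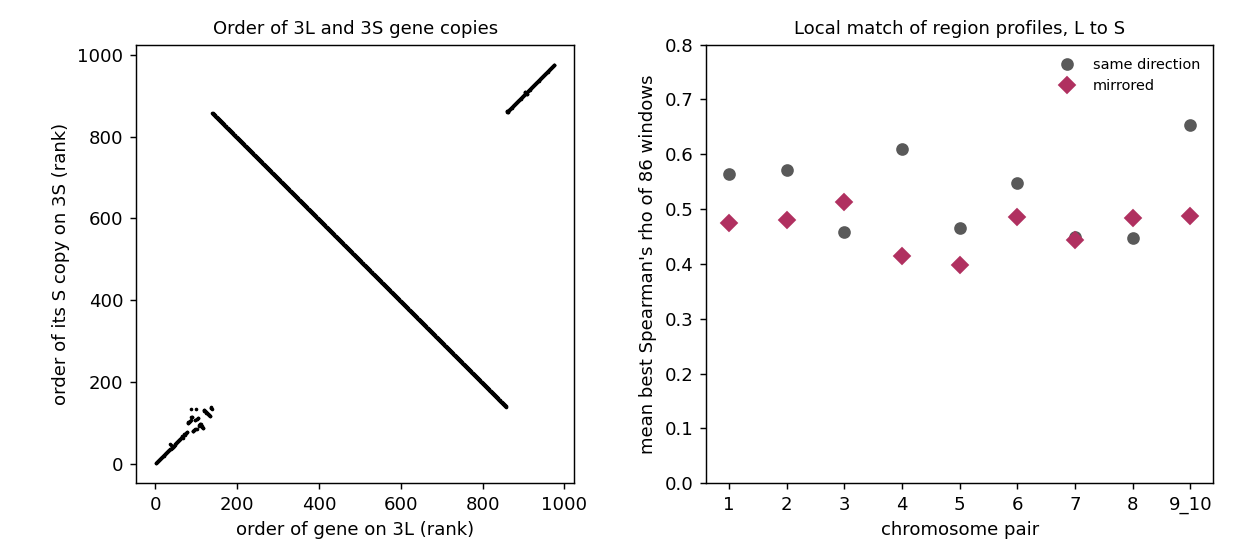
Left: order of 976 genes on 3L (horizontal axis, rank) against the order of their S copies on 3S (vertical axis, rank), from the gene table of Xenopus_laevis_v10.1, where the block of 720 genes runs downwards, reversed. Right: mean best Spearman's rho of 86 local windows (vertical axis) for each chromosome pair, in the same direction (circles) and mirrored (diamonds), with mirrored above same direction in pairs 3 (0.513 and 0.458) and 8.

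Crowded windows had counterparts in both directions. Of the 10 most crowded windows of 3L, 3 had one of the 10 of 3S within 2% of the same relative position, and 4 within 2% of the mirrored position. In the other pairs these counts ran from 3 to 8 and from 0 to 7, so pair 3 did not stand out. The window at 1.28% of 3L (18 regions) faced those of 3S at 1.04% (16 regions) and 1.29% (11 regions), at the start of both chromosomes. The window at 89.6% of 3L (15 regions) faced the most crowded window of 3S, also at 89.6% (18 regions). The most crowded window of 3L, at 94.6%, had a counterpart at 95.7% of 3S (12 regions) in the same direction and the strong window at 4.77% of 3S (16 regions) in the mirrored direction. The other mirrored matches were of the window at 72.6% of 3L (17 regions) with that at 27.8% of 3S (14 regions), and of 2 windows near the end of 3L. These lay at 98.1% (14 regions) and 99.0% (16 regions) and faced the start of 3S, such as its window at 1.04%. The gene pairs nearest both ends of the order were outside the reversed block. If shares of genes stand for shares of length, only the match of 72.6% with 27.8% lay inside it.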

How the data were processed

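The ChIP libraries of FLAG-tagged ETS2 were analysed from peak lists. Per the submitters' processing notes, Bowtie2 2.2.3 and MACS2 were used; neither their role nor settings are stated. The authors deposited a value per peak, taken here for −log10 of the p-value or q-value because of its lower limit (1.33 in library 1, 1.31 in library 2); the files do not name it. It was used only to rank peaks within a list. Read depth is unknown. The last peak end in any list stood for the length of a chromosome.

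Members and lists were chosen with earlier results of these data known. Overlap was at least 1 bp. A region's strength was the percentile of its highest peak per library, averaged over both. Regions named are, per chromosome, the 5 strongest, the widest, and the 3 longest dense and empty stretches and most crowded windows. The widest regions, the windows compared for counterparts beyond the first 3 and the stretch at the chromosome end were chosen after their values were seen. Intervals are exact (Clopper-Pearson or Poisson). The inputs and a fit between ChIP and input libraries were not used. Motifs, nearest genes and sequences were not analysed, for want of a genome of the build of the files. The search for a reversed part was tested on simulated profiles with a planted reversal, in which both chromosomes shared 1 underlying density profile. How well it finds a reversal in profiles that match as weakly as those of 3L and 3S is not known. Python 3.11.15, numpy 2.4.6, scipy 1.17.1, pandas 2.3.3 and matplotlib 3.10.9 were used.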

Additional observations from a re-analysis of the deposited data

How the results depend on the processing

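The L to S density ratio of 1.18 stayed above 1 with other lengths, thresholds and single libraries. It was 1.088 to 1.18 with a library left out, 1.13 above the median percentile and 1.07 without the last 20%. It turned to 0.923 per protein-coding gene of the Xenopus_laevis_v10.1 table (1.41 regions per gene on 3L, 1.53 on 3S), which was chosen after the data were seen, like the omission of the last 20% and the part given by gene order. Against genes of all kinds in that table (3596 on 3L, 2644 on 3S) it did not turn. The ratio of 3L to 3S in the share of close neighbours was 1.23, and 1.07 to 1.16 with a library left out, 1.34 above the median percentile, 1.11 for gaps under 20 kb and 1.14 without the last 20%. That in the share of crowded windows was 1.76, and 1.23 to 1.40 with a library left out, 2.09 above the median percentile, 1.45 with 50-kb windows of 5 or more, 2.51 with 200-kb windows of 20 or more, 2.23 at 15 or more and 1.60 without the last 20%. The difference in median width (3L minus 3S, −1.50 bp) was −5 to 11 bp and that in median percentile (−1.84 points) −0.560 to 2.21 points with a library left out, without a fixed sign. Leaving a library out here sets all peaks of the other in place of common regions. Over common regions the difference in median percentile was −1.19 in library 1, −0.222 in library 2 and −1.30 with the mean of the overlapping peaks. Spearman's rho in the same direction (0.0276) was 0.0314 to 0.0583 with a library left out, 0.0987 above the median percentile, 0.105 with 50 bins, −0.0952 with 200 bins, 0.104 with bins of 1 Mb and −0.0219 without the densest 5% of bins. After the search (0.348) it was 0.329 to 0.330 with a library left out, 0.303 above the median percentile, 0.416 with 50 bins, 0.292 with 200 bins, 0.366 as Pearson's r of square roots, 0.256 without the densest 5% of bins and −0.00529 with the part given by gene order. The cause of these shifts was not tested. No paired analysis was possible because no test set ChIP against input libraries. How far the extra peaks of library 2 reflect depth cannot be told, since depth is unknown.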

Other observations

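A few regions were ranked differently among common regions by the libraries. Of 6220 regions on 3L and 3S, 2 were in the top 10% of common regions in library 2 and below the median in library 1, both on 3L. The region at 44592801 to 44593470 had the value 5.05 in library 1 but 115 in library 2, and that at 55512531 to 55513010 had 6.13 and 98.9. The reverse was found for 4 regions of 3L and 1 of 3S. The largest such gap was at 250108 to 250363 of 3L, a narrow region near the chromosome start, with 42.1 in library 1 and 16.2 in library 2. These regions were singled out after their values were seen. How often such regions occur on the other chromosomes was not computed.

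Per protein-coding gene of the Xenopus_laevis_v10.1 table, though not per gene of all kinds, the pair ran the other way from density per Mb. The table lists 2580 protein-coding genes on 3L and 1683 on 3S, a ratio of 1.53, above the 1.41 of the region counts. In 5 of the other 8 pairs the ratio of regions per protein-coding gene was also below 1, from 0.753 in pair 8 to 0.978 in pair 2. Genes of all kinds numbered 3596 on 3L, fewer than its 3644 regions, and 2644 on 3S, more than its 2576 regions. Set against all genes, 3L thus stayed the higher. Protein-coding genes were a smaller part of all genes on 3S (1683 of 2644) than on any other S chromosome, such as 4S (1554 of 1952). The outcome against all genes thus depends on the many other genes listed on 3S. The build of the table is not known to be that of the files.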
